A study of Rattus norvegicus with 6 samples.

Results

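Mitochondrial ribosomal proteins were followed in beta cells of fed and fasted rats. The members are the genes whose only platform symbol is Mrpl or Mrps followed by a number. There were 73 such genes among 14217 named on the arrays, 46 of the large subunit (Mrpl) and 27 of the small subunit (Mrps). They were measured by 97 of 31042 probe sets (a probe set is a group of short oligonucleotides matching 1 transcript). Each gene is given by its probe set with the highest mean over the 6 arrays. The choice used no difference between groups.

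Mitochondria make a small set of respiratory chain proteins on ribosomes of their own. The RNA of these ribosomes is transcribed inside the organelle, but every one of their proteins is encoded in the nucleus, translated in the cytosol and imported. Some members descend from bacterial ribosomal proteins and others have no counterpart in the bacterial ribosome. Beta cells depend on mitochondrial ATP production to couple glucose to insulin release, so this machinery belongs to the apparatus behind secretion.

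Pancreatic beta cells were sorted by FACS from male Wistar rats of 10 weeks that had been fed ad libitum or fasted for 24 h. The animals carried no transgene or other treatment according to the labels. Each group had 3 isolates, each pooled from 5 rats and hybridized on 1 array. The labels call them biological replicates, and the study describes its rat isolates as independent. The comparison asks which transcripts of beta cells respond to a day without food. A pooled isolate averages its rats, so the spread between arrays leaves out that between single animals, and in bulk RNA fewer cells of a type and less RNA per cell cannot be told apart.

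The deposited values are linear intensities that the authors computed with dChip. They were raised to a floor of 3.27 where lower, taken as log2 and compared with limma, and each change is log2 of fasted over fed. A gene was called lower or higher at a fold of at least 1.5 together with an unadjusted p under 0.05, the thresholds of the study. The study applied them in dChip and reported a much smaller share of changed transcripts than was called here, so the calls are not the same. Median intensity over all probe sets ran from 20.2 to 21.8 on the fed arrays and was 17.1, 17.8 and 21.0 on fasted arrays 1 to 3. The median log2 change of all probe sets was -0.20. It shrank to -0.02 when arrays were quantile normalized and to 0.01 when they were scaled so that their 75th percentiles were equal. The median change of the members and the changes of some genes are therefore also given relative to it. All other changes and the calls include this shift. Beta cell markers were present, with mean intensities in the fed isolates of 5959 for Ins1, 5784 for Ins2 and 7050 for Iapp, and 0 of 7 measured markers were called. Hormone transcripts of other islet cells were bright too, with fed means of 5196 for Gcg, 4003 for Sst and 2965 for Ppy. Digestive enzyme transcripts of acinar cells were also bright on every array, with summed intensities of 63424 to 68404 in fed and 59200 to 66845 in fasted isolates. The highest value of all probe sets was 7629, so the brightest of these markers may be near saturation. The study proposes such saturation for abundant transcripts on its human arrays. Its qPCR of rat beta cells put Gcg and Ctrb1 far below Ins2, so these intensities do not measure the share of other cells. Duct cell markers summed to 353 to 403 in fed and 430 to 536 in fasted isolates, and 1 of 4, Krt19, was called higher, beside 2.29% of all genes. Krt7 made up most of these sums. The log2 changes were 0.70 for Krt19, 0.37 for Krt7, 0.19 for Spp1 and -0.25 for Cftr. The sums over alpha, delta and PP cell, endothelial and stromal, and leukocyte markers overlapped between the groups. The part of these other cells in the changes below was not tested.

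Of the 73 members, 11 were lower and 0 higher after fasting. These 11 are 15.1% of the members. Over the same rule, 8.43% of all probe sets, 9.51% of all genes and 11.2% of the genes brighter than the median probe set were lower. All 73 members belong to the brighter genes, so the last of these shares is their closest background, and the members' share lay not far above it. For higher calls the background was 2.37% of all probe sets, 2.29% of all genes and 1.57% of the brighter genes. The lower members were Mrpl10, Mrpl17, Mrpl49, Mrpl50, Mrpl51, Mrpl57 and Mrpl58 of the large subunit and Mrps5, Mrps11, Mrps18a and Mrps25 of the small. No member passed Benjamini-Hochberg adjustment over all 31042 probe sets (0 in limma, smallest adjusted p 0.176, and 0 in a comparison with unequal variances), as was true of all probe sets. At an unadjusted p under 0.05 alone, 26 members (35.6%) were lower and 0 higher, beside 11.6% of all probe sets, 14.9% of all genes and 19.5% of the brighter genes that were lower.

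Most changes of single members were small and on 1 side of 0. Of the 73 log2 changes 65 were negative, from -1.05 for Mrpl50 to 0.24 for Mrpl19, with a median of -0.35 and quartiles of -0.49 and -0.13. Of all genes 67.0% had negative changes, and of the brighter genes 71.6%. The median over the brighter genes was -0.22. Relative to all probe sets the median of the members was -0.15. Without this subtraction it was -0.14 with quantile normalized arrays, where the median of all probe sets was -0.02. With equal 75th percentiles it was -0.10, beside 0.01 for all probe sets. There 45 of 73 changes were still negative, beside 4400 of 9198 brighter genes. The other 8 members, with changes above 0, were Mrpl19, Mrpl40, Mrpl45, Mrps6, Mrps24, Mrps26, Mrps31 and Mrps33. In 33 members (45.2%) all 3 fasted arrays lay below all 3 fed arrays, and in 0 above. All fasted arrays lay below in 17.6% of all probe sets, 21.2% of all genes and 27.4% of the brighter genes, and above in 5.24%, 5.76% and 5.73% of them.

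**Figure D1:**
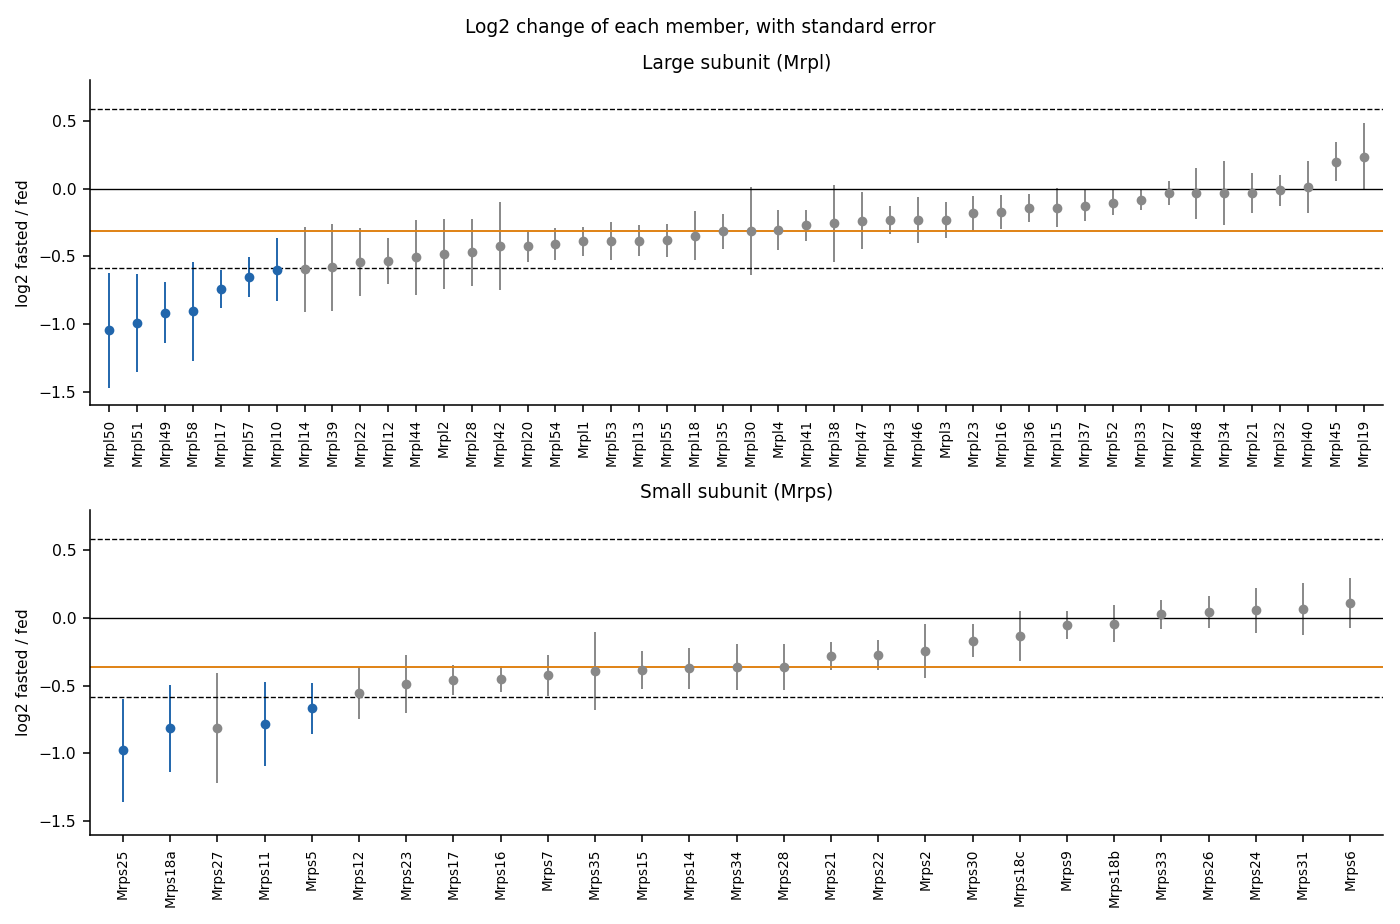
Log2 change (fasted over fed) of each of the 46 Mrpl and 27 Mrps genes, ordered by size, with the standard error of the limma fit as bars. Blue points are the 11 members past both thresholds, dashed lines mark a 1.5-fold change, and the orange line is the median of each subunit, -0.31 for Mrpl and -0.36 for Mrps.

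The count depended on single arrays, as did the share of all probe sets. It was 3 without fed replicate 1, 6 without fed replicate 2 and 3 without fed replicate 3, where 4.66%, 6.43% and 5.72% of all probe sets were lower. It was 7 without fasted replicate 1, 4 without fasted replicate 2 and 19 without fasted replicate 3, beside 5.44%, 5.50% and 17.9% of all probe sets. Without fed replicate 1, fed replicate 3 or fasted replicate 2 the members' share was thus no higher than that of all probe sets. With 1 probe set per gene, 6.03% of all genes were lower without fasted replicate 1 and 18.7% without fasted replicate 3. Fasted replicate 1 gave the lowest value in 36 of 73 members and in 10 of the 11 lower ones, while over all probe sets it was lowest in 40.0%. With equal 75th percentiles 2 members, Mrpl49 and Mrpl51, were lower, beside 4.49% of all genes.

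Mrpl49 and Mrpl17 kept the most calls under other settings. Mrpl49, a protein of the large subunit with no counterpart in the bacterial ribosome, was measured at 159, 120 and 151 in the fed isolates and 61.9, 67.9 and 101 in the fasted ones. Every fasted value lay below every fed value, and the fall was 1.89-fold (log2 -0.92, SE 0.23, unadjusted p = 0.0060 and adjusted p = 0.219 by limma). It was lower under all 17 alternative settings, between -0.67 and -1.13 on the log2 scale. A second, dimmer probe set of Mrpl49 read 76.7, 69.6 and 79.0 in fed and 15.7, 54.3 and 53.3 in fasted isolates, a log2 change of -1.07 that did not pass (unadjusted p = 0.0729 by limma). Both probe sets thus separated the groups, the second with a wide spread among the fasted arrays.

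Mrpl17, a member of a bacterial protein family of the large subunit, had the smallest p of the 73. Its probe set read 561, 433 and 514 in fed and 258, 335 and 310 in fasted isolates. The groups did not overlap and the fasted mean of 301 ± 39.2 compared with 503 ± 64.8 in fed isolates (SD, n = 3 each). The log2 change was -0.74 (SE 0.14, unadjusted p = 0.0018, adjusted p = 0.176 by limma). It was called in 16 of 17 alternatives and lost only with equal 75th percentiles, where it stood at -0.50.

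The start regions of these genes are shown because each member is transcribed from a nuclear promoter of its own or from 1 shared with a neighbour. The windows of the 2 members with the most stable calls, Mrpl49 and Mrpl17, are given first. Those of Mrps11, 1 gene of a divergent pair, and of Mrpl33, a member with a change near 0, follow. Mrpl49 also starts close to a gene on the opposite strand, as described below. Each window holds 250 bases before and 50 after the annotated start of transcription, 5′ to 3′ on the gene's strand, from RefSeq on the GRCr8 build. Capitals mark matches on either strand to letters of 3 motifs known from nuclear genes of mitochondria, GCGCA and GCGC with any 1 base between them (NRF1), CCGGAAG (ETS factors such as GABP) and ATGGCGG (YY1). Mrpl49 (chr1:212779278-212779577, minus strand) held none of the 3, Mrpl17 (chr1:169575650-169575949, minus strand) 1 NRF1 match, Mrps11 (chr1:142117014-142117313, plus strand) none, and Mrpl33 (chr6:30553938-30554237, minus strand) 1 ETS match.
Mrpl49: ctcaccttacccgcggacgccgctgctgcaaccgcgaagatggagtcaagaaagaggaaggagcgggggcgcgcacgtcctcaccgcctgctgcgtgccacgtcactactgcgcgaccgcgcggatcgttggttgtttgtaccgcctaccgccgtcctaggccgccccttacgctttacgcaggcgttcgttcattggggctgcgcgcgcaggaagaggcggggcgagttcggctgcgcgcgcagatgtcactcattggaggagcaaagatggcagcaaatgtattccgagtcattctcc
Mrpl17: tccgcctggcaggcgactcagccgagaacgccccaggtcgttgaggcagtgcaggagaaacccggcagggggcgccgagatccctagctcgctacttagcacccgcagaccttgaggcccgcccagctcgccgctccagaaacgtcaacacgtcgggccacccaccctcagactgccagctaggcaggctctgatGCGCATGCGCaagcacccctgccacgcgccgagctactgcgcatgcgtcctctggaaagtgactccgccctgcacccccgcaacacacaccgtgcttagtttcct
Mrps11: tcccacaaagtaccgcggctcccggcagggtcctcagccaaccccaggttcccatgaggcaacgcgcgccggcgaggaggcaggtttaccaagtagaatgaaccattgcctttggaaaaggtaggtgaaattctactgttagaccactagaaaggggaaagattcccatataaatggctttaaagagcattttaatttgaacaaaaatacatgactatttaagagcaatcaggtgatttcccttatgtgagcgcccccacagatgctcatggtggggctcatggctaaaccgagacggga
Mrpl33: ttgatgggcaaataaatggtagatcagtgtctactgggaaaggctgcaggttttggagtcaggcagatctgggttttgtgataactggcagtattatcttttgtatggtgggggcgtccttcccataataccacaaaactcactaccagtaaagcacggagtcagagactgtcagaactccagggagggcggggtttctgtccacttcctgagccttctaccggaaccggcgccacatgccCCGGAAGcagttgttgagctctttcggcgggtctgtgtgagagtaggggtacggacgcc

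A window was found for 59 of 73 members and for 18999 protein-coding genes in all. The NRF1 letters stood in 9 members (15.3%) and 6.08% of all windows, the ETS letters in 20 members (33.9%) and 11.2% of all, and the YY1 letters in 13 members (22.0%) and 6.38% of all. Among the 11 lower members, 2 held the NRF1, 3 the ETS and 3 the YY1 letters, beside 7, 17 and 10 of the 48 others. The motifs were counted separately, also where matches overlap, and a match is a description of letters and not a bound site.

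Mrpl33, shown for comparison, had a change near 0. This protein of a bacterial family read 419, 399 and 436 in fed and 404, 384 and 394 in fasted isolates. The values overlapped, with a log2 change of -0.08 (SE 0.07, unadjusted p = 0.295 by limma). Its change relative to the median of all probe sets was 0.12, and its sign turned under other scalings (0.035 with quantile normalized arrays, 0.16 with equal 75th percentiles).

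The other lower members of the large subunit with no counterpart in the bacterial ribosome were Mrpl57, Mrpl51, Mrpl50 and Mrpl58. Mrpl57 read 233, 188 and 243 in fed and 152, 122 and 147 in fasted isolates, with no overlap (log2 -0.65, SE 0.15, unadjusted p = 0.0037 by limma). Its second probe set, at 49.2, 72.1 and 46.2 against 58.1, 53.7 and 47.5, had a log2 change of -0.05. The probe sets of Mrpl57 therefore disagreed, and the mean of both was not called.

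Mrpl51 was the member with the most probe sets. The brightest read 206, 165 and 194 in fed and 53.8, 106 and 147 in fasted isolates, a log2 change of -0.99 (SE 0.36, unadjusted p = 0.0326 by limma). The groups did not overlap, although fasted replicate 3 came near the lowest fed value. All 4 probe sets of Mrpl51 had negative changes, from -0.59 to -1.49, and 3 of them were called lower. They share 1 gene and the same RNA, and are no replicates of the condition.

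Mrpl50 had the largest fall of the members and the weakest separation among the called ones. Its values were 141, 109 and 143 in fed and 34.0, 65.7 and 111 in fasted isolates (log2 -1.05, SE 0.42, unadjusted p = 0.0462 by limma). Fasted replicate 3 lay above fed replicate 2, which made Mrpl50 the only called member with overlapping groups. A dimmer probe set of the gene, at 39.1, 30.4 and 49.3 against 20.6, 14.2 and 21.7, was also lower (-1.07), there without overlap. Mrpl50 lost its call without fasted replicate 1 (-0.60).

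Mrpl58 is a peptidyl-tRNA hydrolase that is built into the large subunit and releases chains from stalled ribosomes. It read 55.1, 55.5 and 57.2 in fed and 17.5, 33.4 and 45.5 in fasted isolates. The fed values lay close together, the fasted ones were spread widely, and the groups did not overlap (log2 -0.91, SE 0.36, unadjusted p = 0.0451 by limma). Without fasted replicate 1 the change was -0.52 and not called.

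Mrpl10, the protein that anchors the stalk where translation factors bind, read 85.7, 95.6 and 96.1 in fed and 43.2, 71.4 and 73.5 in fasted isolates. Its change was just past the fold threshold (log2 -0.60, SE 0.23, unadjusted p = 0.0413 by limma). A second probe set of Mrpl10, at 75.2, 79.6 and 55.1 against 82.5, 75.9 and 73.5, had a positive change (0.16), and the call remained in 5 of 17 alternatives. Mrpl12, the partner protein that forms the stalk itself, is given with it after its values were seen. It read 153, 116 and 164 in fed and 102, 88.1 and 106 in fasted isolates, a log2 change of -0.54 (unadjusted p = 0.0180 by limma) that missed the fold threshold. In both stalk proteins the groups did not overlap.

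The 4 lower members named as small subunit proteins were Mrps5, Mrps11, Mrps18a and Mrps25. Mrps5, of a bacterial family, read 81.2, 60.8 and 72.2 in fed and 40.0, 42.7 and 52.1 in fasted isolates (log2 -0.67, SE 0.19, unadjusted p = 0.0114 by limma). Its fasted values were close together and below all fed values, and the call remained in 14 of 17 alternatives. Mrps25, with no counterpart in the bacterial ribosome, read 32.0, 27.6 and 30.6 against 9.24, 18.3 and 21.0 (log2 -0.98, SE 0.38, unadjusted p = 0.0418 by limma). Its groups did not overlap, and the call remained in 10 of 17 alternatives.

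Mrps11, a bacterial family protein of the small subunit's platform, read 96.4, 92.8 and 109 in fed and 36.0, 65.4 and 81.7 in fasted isolates. Mrps18a, which carries a small subunit name but sits in the large subunit in structures of the mammalian ribosome, read 103, 94.9 and 112 against 35.4, 68.8 and 82.9. These profiles were alike, with fasted replicate 1 far below the others and no overlap between groups. The log2 changes were -0.78 for Mrps11 (SE 0.31, unadjusted p = 0.0440 by limma) and -0.82 for Mrps18a (SE 0.32, unadjusted p = 0.0439). Neither was called without fasted replicate 1, at -0.44 and -0.45.

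**Figure D2:**
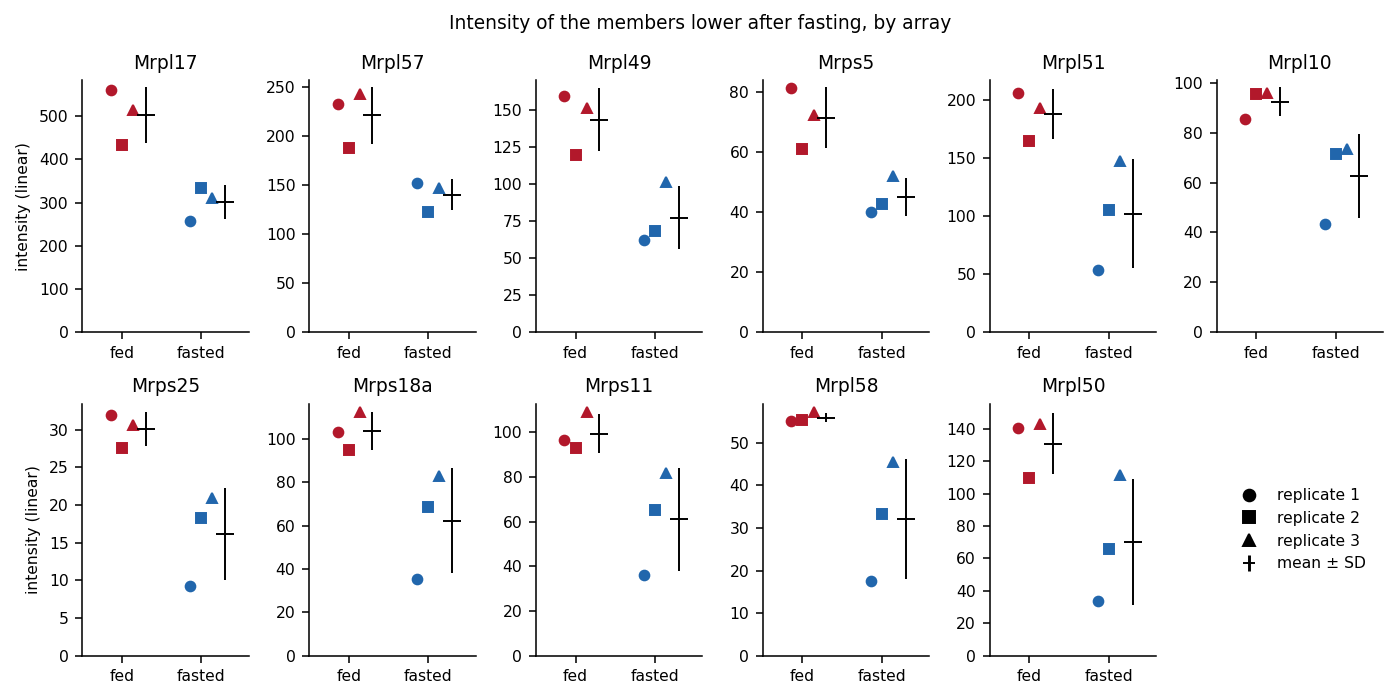
Linear intensity (each vertical axis starting at 0) of the 11 lower members on each array, fed in red and fasted in blue, with the mean and SD of 3 arrays beside them. Fasted replicate 1 (circles) is the lowest point in 10 of the 11 panels, and Mrpl50 is the only panel where the groups overlap.

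Members just outside the thresholds differed in which one they missed. Mrps16 and Mrps17, small subunit proteins of bacterial families, had low p-values and smaller folds. Mrps16 read 245, 231 and 269 in fed and 175, 187 and 183 in fasted isolates (log2 -0.45, SE 0.09, unadjusted p = 0.0029 by limma). Mrps17 read 169, 157 and 185 against 120, 119 and 133 (log2 -0.46, SE 0.11, unadjusted p = 0.0054). Mrpl20, a bacterial family protein of the large subunit, read 174, 190 and 184 against 127, 128 and 155 (-0.42, unadjusted p = 0.0104), and Mrps12, the protein at the decoding site, 101, 82.9 and 112 against 71.9, 54.5 and 75.8 (-0.55, unadjusted p = 0.0264). None of these 4 had overlapping groups, and in Mrps16 the fasted arrays agreed more closely than the fed ones.

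A further pair passed the fold alone. Mrpl14 read 30.9, 24.7 and 25.8 in fed and 20.9, 12.8 and 21.2 in fasted isolates (-0.60, unadjusted p = 0.105 by limma). Mrps27, an RNA-binding protein of the small subunit, read 48.4, 40.9 and 50.7 against 14.8, 29.6 and 42.3 (-0.81, unadjusted p = 0.0900). Its groups overlapped, and a dimmer probe set of Mrps27 had a change of 1.29 (unadjusted p = 0.0519). Mrpl39, a large subunit protein without a bacterial ribosomal counterpart, came close at 40.3, 30.9 and 42.7 against 25.5, 17.7 and 35.0 (-0.58, unadjusted p = 0.116), and its groups overlapped. In all 15 members passed the p alone, 2 the fold alone and 45 neither.

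Probe sets of Mrps33, Mrps18b and Mrps21 were among the brightest of the members. Mrps33 read 489, 441 and 566 in fed and 516, 478 and 521 in fasted isolates, with overlap and a log2 change of 0.03 (SE 0.11). Mrps18b read 360, 288 and 401 against 356, 336 and 319 (-0.04, SE 0.14). Mrps21 read 332, 295 and 317 against 232, 268 and 279 (-0.28, unadjusted p = 0.0352 by limma), without overlap. Mrps33 stood at -0.07 with array weights and Mrps18b at 0.20 with equal 75th percentiles, so that neither sign was stable.

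A few members stood on the other side of 0. Mrpl45, which attaches the ribosome to the inner membrane, read 69.4, 61.8 and 62.2 in fed and 72.8, 82.9 and 67.0 in fasted isolates (0.20, SE 0.15, unadjusted p = 0.216 by limma). Mrps26 read 112, 103 and 110 against 118, 99.6 and 118 (0.04, unadjusted p = 0.735). Both overlapped between groups. A dim second probe set of Mrps26 was called lower (-0.86) from values of 8.49 or less, near the floor, and the mean of both probe sets was -0.41.

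The large and small subunits were close to each other. Of 46 Mrpl genes 7 were lower (15.2%), and of 27 Mrps genes 4 (14.8%). The median log2 change was -0.31 for Mrpl and -0.36 for Mrps, a difference of 0.05. At an unadjusted p under 0.05 alone, 14 Mrpl (30.4%) and 12 Mrps (44.4%) were lower. Set per array, with each gene centred on its own mean log2 over the 6 arrays, the Mrpl median was 0.19, 0.10 and 0.22 in fed and -0.24, -0.17 and -0.03 in fasted isolates. The Mrps median was 0.21, 0.08 and 0.23 in fed and -0.16, -0.18 and -0.03 in fasted isolates. On the deposited scale both subunits thus stood lower in all 3 fasted isolates, least so in fasted replicate 3, and within an array their medians were at most 0.08 apart. Centred in the same way, the median of all probe sets was 0.11, 0.11 and 0.07 in fed and -0.25, -0.12 and 0.06 in fasted isolates. That of the brighter genes was 0.13, 0.09 and 0.11 in fed and -0.26, -0.09 and 0.03 in fasted isolates. On fasted array 1 neither subunit lay below these medians. The sign of the small difference was not stable, since it was -0.01 without fed replicate 1, -0.02 without fed replicate 3, 0.11 without fasted replicate 1 and -0.08 without fasted replicate 3. With equal 75th percentiles, the median over all 73 members was 0.05, -0.03 and 0.13 in fed and 0.08, -0.05 and -0.10 in fasted isolates, and the groups overlapped.

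Placing Mrps18a and Mrps30 with the large subunit, as structures do, gave 8 of 48 lower in the large and 3 of 25 in the small. By origin, 5 of 43 members of bacterial families (11.6%) and 6 of 29 without a counterpart in the bacterial ribosome (20.7%) were lower, with medians of -0.32 and -0.36. Mrpl55 was left out of this split because its origin was not assigned. No test of a difference between these classes was made.

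In 18 members more than 1 probe set was present, and in 12 of these all probe sets had the same sign. Agreement in sign did not always mean agreement in the call. Mrps14, of a bacterial family, read 167, 150 and 181 against 136, 107 and 145 on its brightest probe set (-0.37), which was not called, and 155, 129 and 145 against 65.6, 88.6 and 120 on the other (-0.68), which was. Mrps18c, another gene of the Mrps18 family, had log2 changes of -0.13 on its brightest and -1.27 on its lowest probe set, with none called. The choice of the brightest probe set therefore sets the call in genes such as Mrps14, Mrpl10 and Mrpl57.

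**Figure D3:**
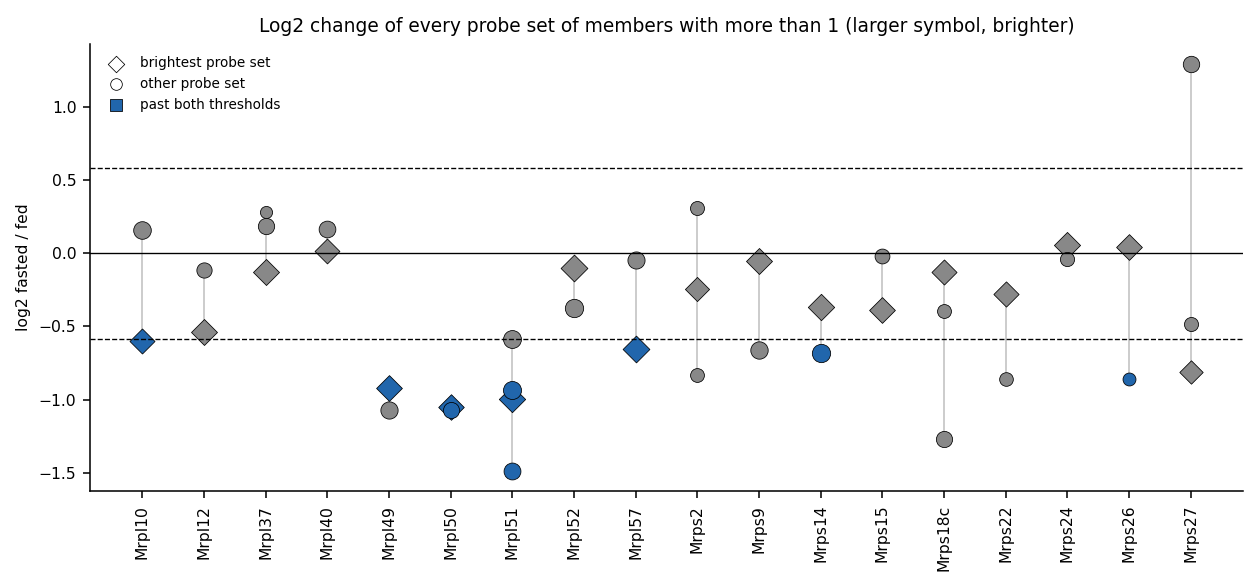
Log2 change (fasted over fed) of every probe set of the 18 members with more than 1, diamonds for the brightest of a gene and circles for the others, sized by brightness. Blue symbols passed both thresholds. Mrpl49, Mrpl50 and Mrpl51 are below 0 on all their probe sets, while Mrps27 and Mrpl10 lie on both sides of 0.

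Many members start close to another gene on the opposite strand. A start within 1000 bases in this head-to-head order was found for 17 of 59 members (28.8%) and for 6.99% of all 18999 genes. Mrps11 and Mrpl46 are such a pair, with starts 234 bases apart, so that the Mrps11 window printed above reaches across the Mrpl46 start. Mrpl46, a large subunit protein without a bacterial ribosomal counterpart, read 51.1, 56.2 and 49.7 in fed and 42.0, 50.9 and 41.2 in fasted isolates. Its change of -0.23 was not called and its groups overlapped, while Mrps11 was lower at -0.78 without overlap. The difference between the 2 genes was not tested. Of the other lower members, Mrpl49 starts 186 bases from Fau, which was not measured by a probe set of 1 symbol. Mrpl51 starts 50 bases from Ncapd2, a condensin subunit with a log2 change of -1.09 (unadjusted p = 0.247 by limma). Ncapd2 read 41.3, 25.3 and 26.7 in fed and 6.89, 56.6 and 7.41 in fasted isolates, so that fasted replicate 2 lay above all fed values.

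Other genes of mitochondrial translation were taken from lists by function, drawn up with earlier results of these data known. The genes named from them are mostly called ones. Their counts stand beside 9.51% of all genes lower and 2.29% higher, and beside 4.49% lower with equal 75th percentiles. Their centred medians stand beside -0.23, -0.10 and 0.04 for all genes on fasted arrays 1 to 3. Of 17 measured translation factors 3 were lower (17.6%) and 0 higher, and 1 was lower with equal 75th percentiles. The median change was -0.54, and the centred list median was -0.57, -0.20 and -0.10 on fasted arrays 1 to 3. Tufm, the mitochondrial elongation factor Tu, read 132, 116 and 144 in fed and 68.1, 75.3 and 94.0 in fasted isolates (-0.73, SE 0.17, unadjusted p = 0.0042 by limma). The groups did not overlap. Mtrf1, a release factor family member, fell from 21.9 ± 3.30 to 10.6 ± 1.86 (SD, n = 3 each, log2 -1.04), and Slirp, which binds mitochondrial messenger RNA, from 92.1 ± 5.04 to 61.8 ± 17.3 (-0.62).

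Among 16 mitochondrial aminoacyl-tRNA synthetases, which charge the tRNAs, 3 were lower (18.8%, Tars2 by -0.61, Cars2 by -0.78 and Rars2 by -0.68) and 0 higher, and the median was -0.32. With equal 75th percentiles 0 were lower. The centred list median of fasted replicate 3, 0.34, lay above those of all fed arrays (0.33, 0.18 and 0.28), while fasted replicates 1 and 2 stood at -0.46 and -0.40. Of 27 genes of ribosome assembly and rRNA modification 5 were lower (18.5%) and 0 higher, and 4 were lower with equal 75th percentiles. Their median was -0.47, and 63.0% of their changes were negative, beside 67.0% of all genes. The centred list median was -0.53, -0.20 and 0.04 on fasted arrays 1 to 3. Noa1, a GTPase of mitochondrial ribosome assembly, read 19.3, 15.0 and 19.6 in fed and 4.85, 6.41 and 9.17 in fasted isolates (-1.43, SE 0.37, unadjusted p = 0.0072 by limma). Spg7, a subunit of the protease that matures Mrpl32, was lower by -1.06, Mrm1, an rRNA methyltransferase, by -1.09 and Trub2, a pseudouridine synthase, by -0.82. The fifth was Dhx30, an RNA helicase (-0.97). Mrpl32 itself was not called.

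Of 25 genes of mitochondrial transcription and RNA processing 3 were lower (12%) and 1 higher (4%). On the deposited scale these shares were close to those of all genes, and the median was -0.38. With equal 75th percentiles 3 were lower. The centred list median was -0.41, -0.17 and 0.11 on fasted arrays 1 to 3. The lower ones were Tefm, the transcription elongation factor (-1.14), and the RNA-binding proteins Fastk (-1.23) and Fastkd5 (-1.28). Twnk, the helicase of mitochondrial DNA, was higher, at 24.0, 26.6 and 20.7 in fed and 45.9, 44.2 and 28.2 in fasted isolates (0.70, SE 0.28, unadjusted p = 0.0437 by limma). Of 12 regulators of nuclear genes for mitochondria 2 were lower (16.7%) and 0 higher, and 2 were lower with equal 75th percentiles. The centred list median was -0.70 on fasted array 1, -0.13 on fasted array 2 and 0.14 on fasted array 3. Myc, a transcription factor of growth and ribosome production, read 113, 125 and 138 against 34.0, 71.7 and 66.1 (-1.20, SE 0.30, unadjusted p = 0.0067), and Pprc1, a coactivator related to PGC-1, fell from 69.9 ± 15.4 to 36.1 ± 6.19 (-0.94). Nrf1 (-0.32), Gabpa (-0.26) and Yy1 (0.11), whose motif letters were searched above, were not called. Beside these stand 0 of 5 measured ribosome proteins with other symbols (median -0.23) and 0 of 41 proteins of the cytosolic ribosome (median 0.10). Of 34 subunits of complex I, a respiratory complex that holds products of these ribosomes, 4 were lower and 1 higher (median -0.19). Of these subunits 91.2% had negative changes, and 41.2% were lower at an unadjusted p under 0.05 alone. All fasted arrays lay below all fed arrays in 50% of them. That share was 52.9% for translation factors, 25% for synthetases, 33.3% for ribosome assembly and 7.32% for the cytosolic ribosome. The traits of the members were thus shared by some related lists.

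**Figure D4:**
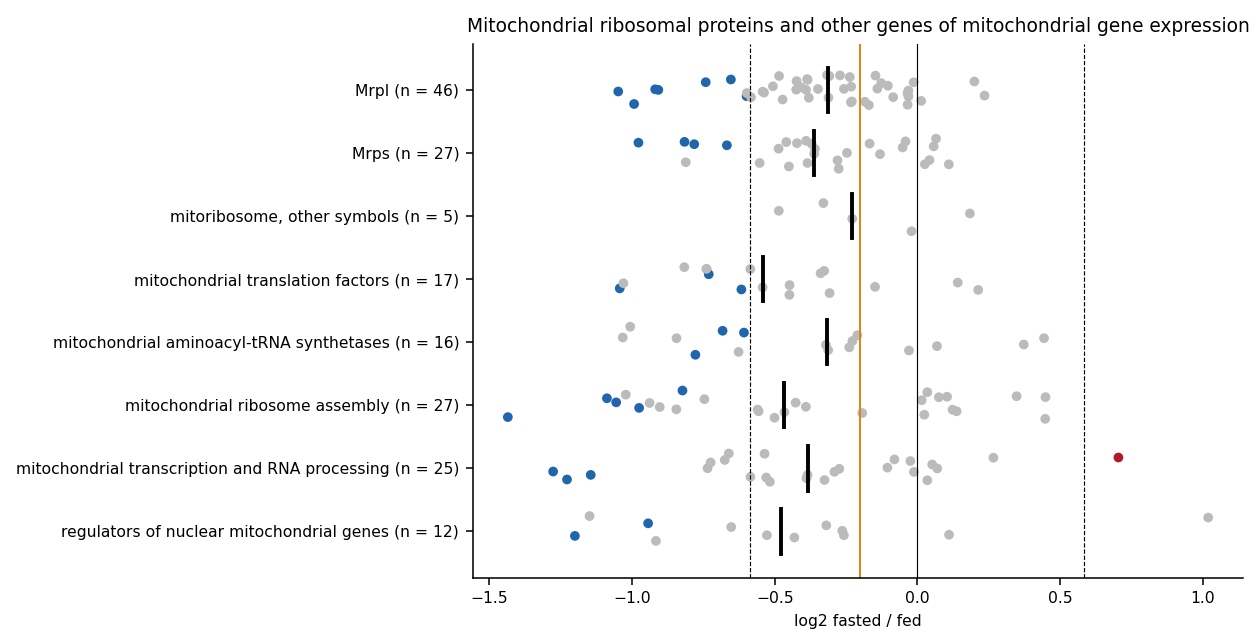
Log2 change (fasted over fed) of each gene in the 2 subunits and in 6 other lists of mitochondrial gene expression, with black bars for list medians, the orange line for the median of all probe sets (-0.20) and dashed lines at a 1.5-fold change. Blue points passed both thresholds downward and the red point, Twnk, upward. Vertical position within a list only separates the points.

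How far each call of the 11 members depended on the settings differed from gene to gene. The number of 17 alternatives that left the call in place was 17 for Mrpl49, 16 for Mrpl17, 14 for Mrps5, 12 for Mrpl57, 11 for Mrpl51 and 10 for Mrps25. It was 7 each for Mrpl50, Mrps11 and Mrps18a, 6 for Mrpl58 and 5 for Mrpl10. All 11 kept a negative change under every alternative. Relative to the median of all probe sets, 1.5-fold was not reached by Mrpl10 (-0.40), Mrpl57 (-0.45), Mrps5 (-0.47), Mrpl17 (-0.54) and Mrps11 (-0.58). The others of the 11 stayed past it.

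**Figure D5:**
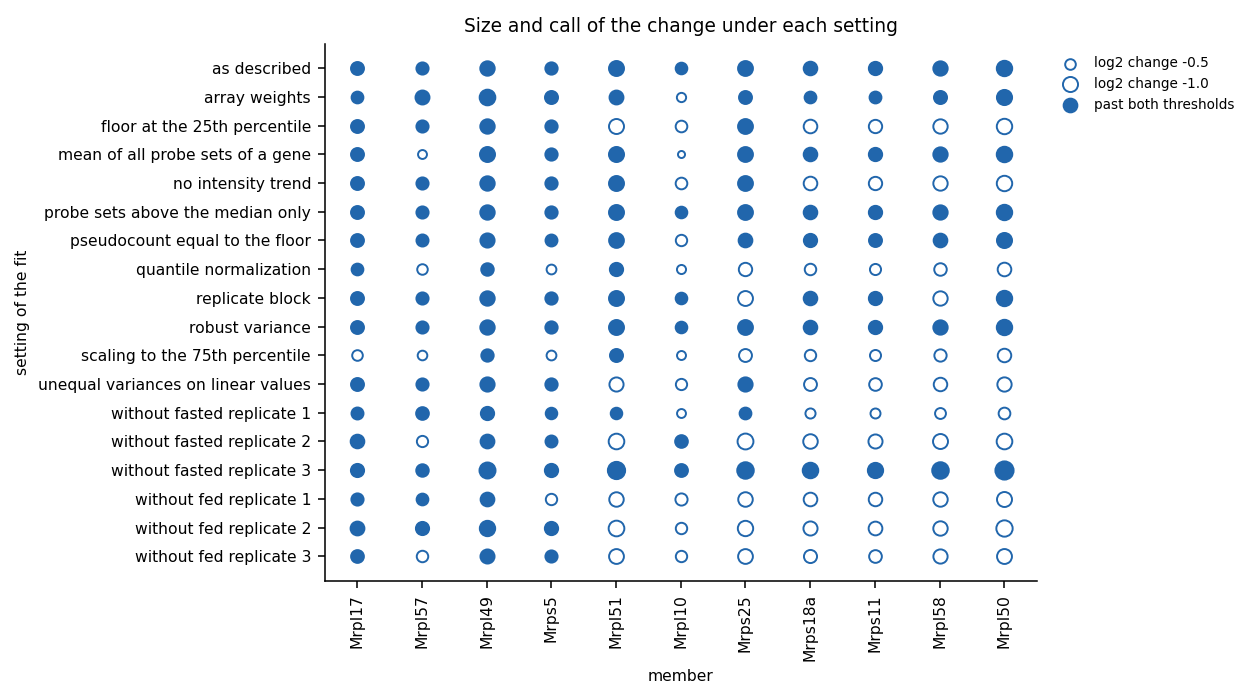
Each column is 1 of the 11 lower members and each row 1 setting of the comparison, from the one described at the top through 17 alternatives. The area of a circle stands for the size of the log2 change, all negative, and filled circles passed both thresholds. Mrpl49 is filled in every row.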

How the data were processed

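Beta cell RNA of 3 fed and 3 fasted isolates was measured on 1 Affymetrix rat array each. The RNA of all isolates was extracted together. The authors computed the deposited intensity values with dChip model-based analysis, after normalization to the array of median intensity and mismatch background correction. They are linear. The dChip version is not given in the sources used here. A scan batch was not tested, since scan dates were not used.

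Here 57 control probe sets were left out, a floor was set at the 10th percentile (3.27), and 31042 probe sets were compared on the log2 scale by limma 3.58.1 under R 4.3.3 (lmFit, eBayes with intensity trend, 2 groups, two-sided, Benjamini-Hochberg over all). The floor understates changes of dim probe sets. Calls took the study's thresholds, 1.5-fold with an unadjusted p under 0.05. With 3 against 3 arrays the smallest exact permutation p is 0.1, and the number of arrays limits the precision. Intensities were not compared between probe sets as expression levels. Of the probe sets 20826 had 1 platform symbol, for 14217 genes. All 73 members matched the RefSeq table of GRCr8 by gene number, and 0 symbols differed.

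The members and lists were chosen with earlier results of these data known. Named members are those past both thresholds, the 4 of each subunit with the largest moderated t, the 5 brightest and 3 dimmest, and up to 4 called genes of each other list. Mrpl12, Mrpl32, Mrpl45, Mrpl46, Mrps14, Mrps18c, Mrps26, Mrps27, Nrf1, Gabpa, Yy1, Dhx30, Fau and Ncapd2, the genes listed with changes above 0 and the 4 promoters shown were chosen after values were seen. Promoters came from RefSeq (GRCr8), and the origin and placement of proteins from general knowledge.

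Alternatives were a higher floor (25th percentile, 7.53), a pseudocount in place of the floor, a filter at the median probe set, quantile normalized arrays, arrays with equal 75th percentiles, eBayes without trend or robust, weights per array, unequal variances on linear values, leaving out each array, a block for the replicate number, and averaging a gene's probe sets. The procedure was tested on simulated data. Python 3.11.15 with matplotlib 3.10.9 drew the plots.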

Additional observations from a re-analysis of the deposited data

How the results depend on the processing

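No member was higher under any of 17 alternatives. The number of lower members (11, with 7 Mrpl and 4 Mrps) became 21 with array weights (14 and 7), whose estimate did not converge, and there 41 members also passed adjustment, as none did elsewhere, beside 22.4% of all probe sets lower and 9973 of 31042 past adjustment. It became 5 with a floor at the 25th percentile (3 and 2), 6 with no intensity trend (4 and 2), 3 with quantile normalized arrays (3 and 0), 2 with equal 75th percentiles (2 and 0) and 5 with unequal variances (3 and 2). In the same order, 6.59%, 8.89%, 4.84%, 4.28% and 5.23% of all probe sets were lower. Leaving out 1 array gave 3 to 19 lower members, 2 to 12 Mrpl and 0 to 7 Mrps, beside 4.66% to 17.9% of all probe sets. Averaging a gene's probe sets gave 9, beside 9.89% of all genes. The filter at the median probe set gave 11, beside 12.7% of the probe sets kept. The median change of all members was -0.14 with quantile normalized arrays and -0.10 with equal 75th percentiles, that of Mrpl -0.13 and -0.070, and that of Mrps -0.17 and -0.12. Leaving out 1 array gave -0.42 to -0.25 for Mrpl. The Mrpl median minus the Mrps median, 0.05, lay between -0.084 and 0.11 when 1 array was left out, at -0.084 without fasted replicate 3, -0.01 without fed replicate 1 and -0.02 without fed replicate 3. The causes were not tested. Single genes that changed sign were Mrps18b (0.063 with quantile normalized arrays, 0.20 with equal 75th percentiles, and -0.18 to 0.064 when 1 array was left out, the highest without fed replicate 3), Mrpl33 (0.035 and 0.16 in the same 2 scalings), Mrpl46 (0.0081 and 0.012 in them), Mrps33 (-0.071 with array weights, and -0.058 to 0.12 when 1 array was left out, the lowest without fed replicate 2) and Mrps26 (-0.12 with array weights, -0.41 for the mean of its probe sets). Over the 42 named genes, 556 of 712 values kept direction and call, 133 kept the direction and lost the call, and 12 gained it.

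With the replicate number as a block 9 members were lower, beside 6.59% of all probe sets. All 9 were among the 11, and Mrpl58 and Mrps25 were lost. Deviations of same-numbered arrays correlated by 0.00010, 0.0107 and -0.0531, which gave no sign of pairing. With so few arrays per group, these correlations cannot decide whether the numbers pair the isolates.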
